A study of Homo sapiens with 18 samples.

Results

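Expression of 9 genes of the NRF2 antioxidant pathway was followed in RNA-seq libraries of human A549 and H1299 lung cancer cells after knockdown of YAP or TAZ. The genes were NFE2L2, KEAP1, NQO1, GCLC, GCLM, TXNRD1, HMOX1, SRXN1 and AKR1B10, taken by gene symbol from the deposited count tables of the lines, which together list 22219 genes. The A549 table lists all 9 and the H1299 table lists 8, so AKR1B10 was not analysed here in H1299. The 18 libraries, 3 in each group, came from A549 transfected with siYAP, siTAZ or siControl and from H1299 transfected with siYAP, siTAZ or siControl. Both are established lines of human non-small cell lung cancer, A549 grown in DMEM and H1299 in RPMI-1640. In every group the siRNA was a SMARTpool, a mixture of oligonucleotides against 1 transcript or of control oligonucleotides, used at 30 nM for 48 h with serum withdrawn over the final 18 h. The control libraries were therefore also transfected and serum-starved, and no untransfected or serum-fed cells were analysed here. The labels number the replicates 1 to 3 without saying whether they were separate cultures, so p-values here reflect only how these libraries scatter, and that scatter may be technical.

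NRF2, the product of NFE2L2, is a transcription factor that binds antioxidant response elements together with small MAF proteins. KEAP1 is an adaptor of a CUL3 ubiquitin ligase that holds NRF2 at a low level until oxidants or electrophiles modify KEAP1. A549 is a widely used line with an inactivating KEAP1 mutation and is known for constitutive NRF2 activity. Among the target genes, NQO1 encodes a quinone reductase, GCLC and GCLM the catalytic and modifier subunits of glutamate-cysteine ligase (the enzyme of the limiting step of glutathione synthesis), TXNRD1 the cytosolic thioredoxin reductase, HMOX1 the heme-degrading heme oxygenase 1, SRXN1 sulfiredoxin, which repairs overoxidised peroxiredoxins, and AKR1B10 an aldo-keto reductase of aldehydes and retinal.

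All 9 are protein-coding genes, placed here on GRCh38 by GENCODE release 29. NFE2L2 lies at chr2:177227595-177392697, KEAP1 at chr19:10486120-10503741, NQO1 at chr16:69706996-69726951, GCLC at chr6:53497341-53616970, GCLM at chr1:93885205-93909456 and SRXN1 at chr20:646615-653370, each on the minus strand. TXNRD1 lies at chr12:104215779-104350305, HMOX1 at chr22:35380361-35394214 and AKR1B10 at chr7:134527592-134541408, each on the plus strand. The annotation places antisense genes over NFE2L2, NQO1, GCLC and TXNRD1. The protein-coding gene AGPS and a pseudogene also overlap NFE2L2 on the other strand. Non-coding genes or pseudogenes overlap NFE2L2, GCLC and TXNRD1 on the same strand, and a sense intronic gene overlaps KEAP1. The protein-coding genes EID3 and AL121758.1 overlap TXNRD1 and SRXN1 on the same strand. GCLM, HMOX1 and AKR1B10 have no annotated overlap, although AKR1B10 has close paralogs. How the counting treated strand and shared reads is not given in the labels, so the values of the overlapped genes may include reads of their neighbours.

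Promoter sequence was searched for the core of the element that NRF2 binds, TGACNNNGC, on both strands. RefSeq windows of 300 bases on GRCh38.p14, from 250 before to 50 after the annotated start, were matched by symbol for 7 of the 9 genes, 10 windows in all. The core was found in 4 windows of 3 genes, GCLM, KEAP1 and TXNRD1. Over all 35116 windows of the same length, 13.3% held the core, and 16.1% of 27305 genes had it in at least 1 window. The 150 bases before the start are shown for the 3 genes because they hold the core, for TXNRD1 before its downstream start only. Every match is in capitals, and each sequence is read along the gene's own strand.
GCLM (chr1:93909431-93909580, minus strand): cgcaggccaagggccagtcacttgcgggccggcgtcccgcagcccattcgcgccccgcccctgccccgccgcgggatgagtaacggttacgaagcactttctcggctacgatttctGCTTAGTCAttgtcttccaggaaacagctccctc
KEAP1 (chr19:10502772-10502921, minus strand): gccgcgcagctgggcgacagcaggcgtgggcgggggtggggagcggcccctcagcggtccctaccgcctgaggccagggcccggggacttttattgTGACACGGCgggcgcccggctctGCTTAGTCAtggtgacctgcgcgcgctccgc
TXNRD1 (chr12:104286882-104287031, plus strand): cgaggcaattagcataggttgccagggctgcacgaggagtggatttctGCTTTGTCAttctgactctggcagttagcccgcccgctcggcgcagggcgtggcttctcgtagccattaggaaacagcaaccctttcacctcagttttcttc
In GCLM the core TGACTAAGC lay on the opposite strand at chr1:93909456-93909464, beginning 34 bases before the RefSeq start and printed as GCTTAGTCA. The same 9 letters lay on the opposite strand of KEAP1 at chr19:10502794-10502802, with a second match, TGACACGGC, upstream of it on the gene's own strand. The RefSeq starts of these windows differ from the GENCODE gene ends given above. By GENCODE, both KEAP1 matches lie inside the gene and the GCLM match reaches its first base. TXNRD1 had TGACAAAGC on the opposite strand at chr12:104286930-104286938 before its downstream start, and the window of its upstream start held TGACTTCGC and TGACGGAGC. The windows of NQO1, GCLC, SRXN1 and NFE2L2 did not contain the core, and sequence outside the windows was not searched for any gene. HMOX1 and AKR1B10 were not covered.

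Library totals were 10.7 to 45.0 M counts (M, counts in units of 1e6) in A549 and 16.8 to 20.8 M in H1299. Levels are given as CPM (counts per 1e6 scaled counts) on 1 scale set over all 18 libraries by the TMM method. YAP1 stood at 19.2 ± 2.4 CPM in siYAP and 64.9 ± 0.9 CPM in siControl A549, and at 13.1 ± 3.8 and 73.2 ± 3.1 CPM in siYAP and siControl H1299 (SD, n = 3). WWTR1, the gene of TAZ, stood at 64.8 ± 12.0 CPM in siTAZ and 197 ± 4.9 CPM in siControl A549, and at 44.25 ± 26.05 and 230.1 ± 22.4 CPM in siTAZ and siControl H1299. In siYAP libraries of H1299, WWTR1 stood at 161.5 ± 16.5 CPM, a difference from siControl that passed only with the replicate number as a block (log2 -0.51 ± 0.17, edgeR adjusted p = 0.0398, 0.204 without). YAP1 in siTAZ libraries of H1299 stood at 90.7 ± 4.0 CPM and was higher than in siControl by the same fit alone (0.30 ± 0.10, edgeR adjusted p = 0.0316, 0.117 without). Of markers of the lines, the epithelial genes KRT8 and KRT18 were the higher ones in A549 and the mesenchymal gene VIM in H1299. CDKN2A, known to be deleted in A549, was listed only in the H1299 table, and the epithelial cadherin CDH1 only in the A549 table. The lung lineage factor NKX2-1 was below 1 CPM on average in every H1299 group and is not in the A549 table, and the surfactant gene SFTPC is in neither. Of 6 genes of leukocytes, endothelium and fibroblasts, PTPRC and COL1A2 were in neither table, and the sum of the others ran from 0.206 to 0.578 CPM in siYAP, 0.109 to 0.380 CPM in siTAZ and 0.216 to 0.765 CPM in siControl A549 libraries (1 of 6 listed). In H1299 (4 of 6 listed) it ran from 1.66 to 2.67 CPM in siYAP, 1.57 to 2.46 CPM in siTAZ and 1.17 to 1.75 CPM in siControl. Of the 2 that could be tested in H1299, the endothelial gene VWF, at 0.545 ± 0.229 CPM in siYAP and 0.675 ± 0.308 CPM in siTAZ against 0.190 ± 0.034 CPM in siControl, was higher after siTAZ (log2 1.81 ± 0.49, edgeR adjusted p = 0.0187) and, with the block only, after siYAP (1.499 ± 0.451, 0.0232, 0.0574 without). PECAM1 passed in neither (0.52 ± 0.27 after siYAP and 0.21 ± 0.28 after siTAZ). The part of these markers in the results was not tested.

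**Figure D1:**
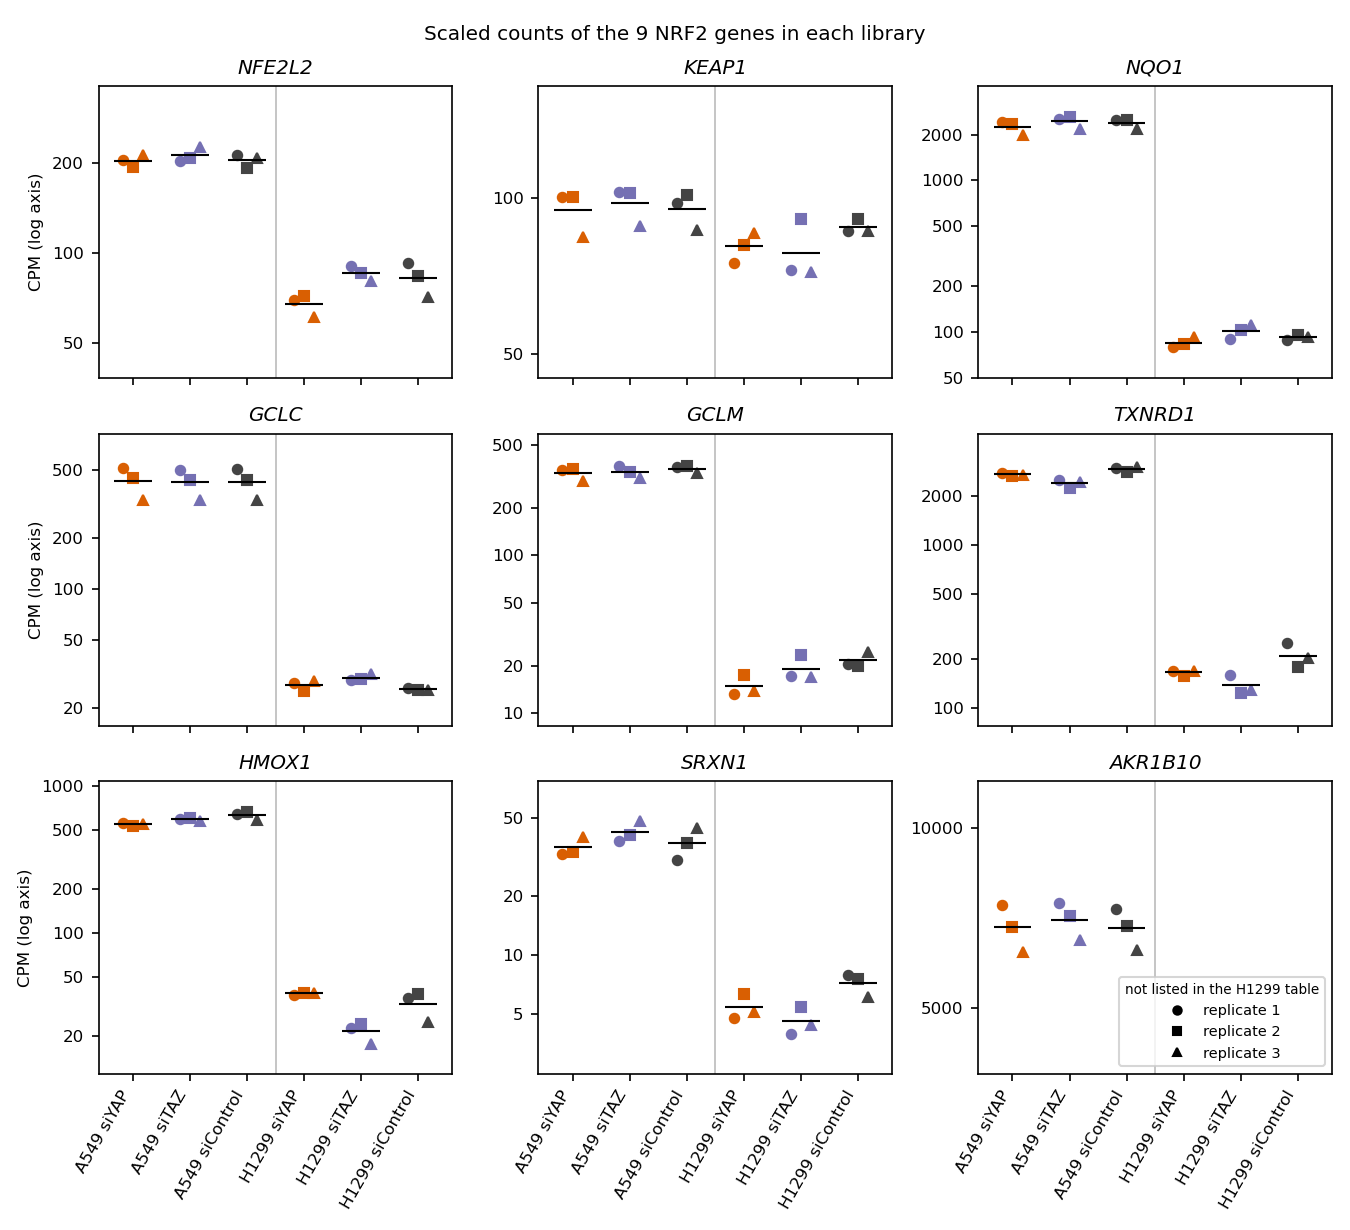
Scaled counts (CPM, log axis) of each gene in every library of the 6 groups, with the symbol shape giving the replicate number and the black line the group mean. For NQO1, GCLC, GCLM, TXNRD1, HMOX1, SRXN1 and NFE2L2 all A549 libraries lie above all H1299 libraries, whereas the KEAP1 levels of the lines meet; AKR1B10 is drawn for A549 only.

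The first comparison set the baseline of A549 siControl against H1299 siControl. A549 cells held far more RNA of the NRF2 target genes in both tables, from 5.21-fold for SRXN1 to 25.9-fold for NQO1. They also held more NFE2L2 RNA, while KEAP1 RNA did not pass the test. By edgeR's quasi-likelihood test with Benjamini-Hochberg adjustment over 15797 genes of both tables, 74.7% of all genes differed at an adjusted p below 0.05, and 7 of the 8 members tested were called. All 7 were higher in A549, where 37% of all genes were called higher and 37.7% lower. The median log2 difference was 3.91 over the 8 members and -0.02 over all genes tested. Each of the 8 had counts in every library of both lines. Line, culture medium and count table go together in this comparison and cannot be told apart, and in RNA of whole cultures a higher level per cell cannot be told apart from a larger share of cells with a high level.

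Of the regulator and its inhibitor, NFE2L2 had 212, 193 and 208 CPM in A549 siControl libraries and 92.4, 83.4 and 71.1 CPM in H1299 siControl libraries. Every A549 library was above every H1299 library, and the log2 difference was 1.31 ± 0.09 (2.48-fold, edgeR adjusted p = 6.04e-10). KEAP1 had 97.9, 101.4 and 86.65 CPM in A549 and 86.3, 91.2 and 86.4 CPM in H1299. These ranges overlapped, and the log2 difference of 0.12 ± 0.10 did not pass the test (edgeR adjusted p = 0.306).

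NQO1 had the largest difference among the 8 members tested. Its level was 2499, 2510 and 2168 CPM in A549 siControl libraries and 88.6, 96.3 and 92.6 CPM in H1299 siControl libraries, a log2 difference of 4.69 ± 0.13 (edgeR adjusted p = 8.365e-16). HMOX1 had 642.5, 666 and 583 CPM in A549 against 36.25, 38.3 and 25.1 CPM in H1299, which was 19.0-fold (log2 4.25 ± 0.14). No A549 library of either gene came near the H1299 range.

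The subunits of glutamate-cysteine ligase differed by nearly the same factor. GCLC had 508, 438 and 336 CPM in A549 and 26.3, 25.5 and 25.5 CPM in H1299, a 16.6-fold difference (log2 4.05 ± 0.18). GCLM had 361.5, 368 and 332 CPM in A549 and 20.5, 19.7 and 24.5 CPM in H1299, a 16.4-fold difference (log2 4.03 ± 0.14). In the A549 group GCLC spread more than GCLM, with replicate 3 as its lowest library.

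The reductases of the thioredoxin and peroxiredoxin cycle came next. TXNRD1 had 2929, 2783 and 2984 CPM in A549 and 250.2, 179.6 and 202 CPM in H1299 (13.8-fold, log2 3.78 ± 0.13). SRXN1, the least abundant member, had 30.7, 37.6 and 44.5 CPM in A549 and 7.97, 7.52 and 6.12 CPM in H1299 (5.21-fold, log2 2.38 ± 0.16). The edgeR adjusted p was at most 9.55e-13 for GCLC, GCLM, TXNRD1 and HMOX1 and 2.22e-10 for SRXN1. AKR1B10, which has no H1299 value, had 7312, 6851 and 6245 CPM in A549 siControl libraries, between 0.6245% and 0.731% of their scaled counts.

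Per kilobase of exon, so that genes can be set against each other, the order of mean levels in A549 siControl was AKR1B10 (3901 CPM per kilobase), NQO1 (735), TXNRD1 (432), HMOX1 (262), GCLM (65.3), GCLC (49.4), NFE2L2 (34.2), KEAP1 (25.35) and SRXN1 (13.9), and no neighbours overlapped. In H1299 siControl it was TXNRD1 (31.4 CPM per kilobase), NQO1 (28.4), KEAP1 (23.4), HMOX1 (13.8), NFE2L2 (13.8), GCLM (3.98), GCLC (2.98) and SRXN1 (2.67). There TXNRD1 and NQO1 overlapped, as did HMOX1 and NFE2L2, and GCLC and SRXN1. With the length of the longest transcript in place of all exons, GCLC stood above GCLM in both lines and NFE2L2 above HMOX1 in H1299.

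**Figure D2:**
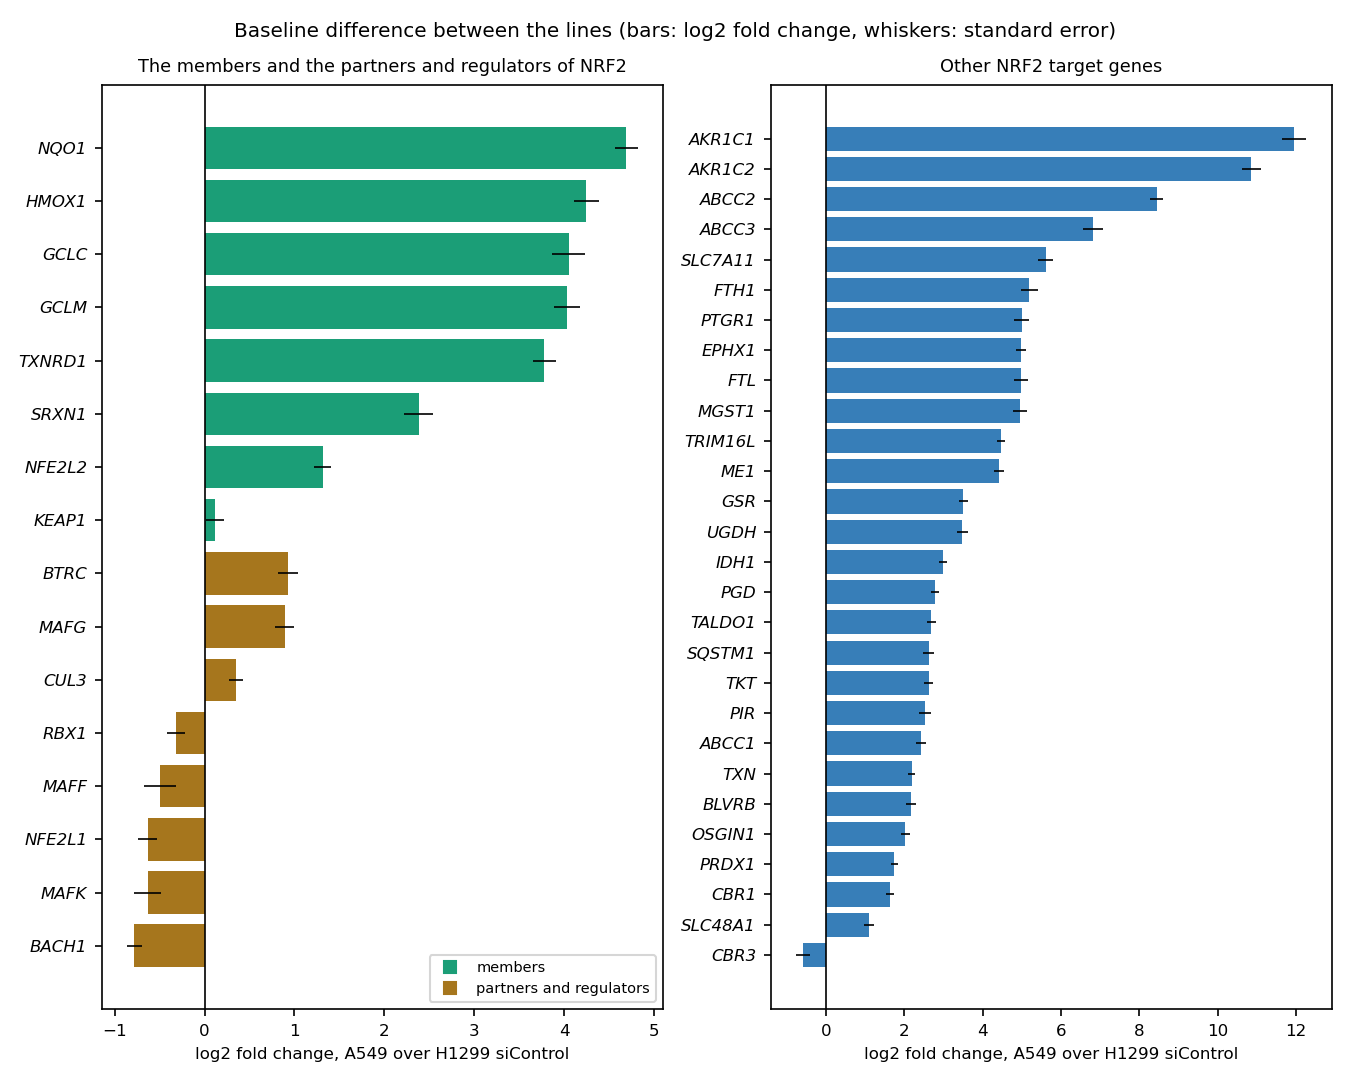
Log2 fold change of A549 siControl over H1299 siControl libraries for the 8 members in both tables and 8 partners and regulators of NRF2 (left), and for 28 of the 30 other NRF2 target genes tested (right), with bars for the estimate and whiskers for its standard error. NQO1 leads these 8 members at 4.69, and the regulators lie between -0.78 and 0.93. CBR3 is the only one of the drawn other target genes below 0. GPX2 is not drawn because its H1299 siControl libraries hold at most 1 count each.

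Other NRF2 target genes, 32 from a list drawn up from general knowledge, were set beside the members. The list was chosen with earlier results of these data known, so it is not independent of them. Of 30 tested, GPX2 and AKR1C1 passed the filter on low counts only through A549, where they had to differ. Of the 28 that passed it within H1299, 27 were higher in A549 and 1 lower, with a median log2 difference of 3.23, against 74.7% of all genes called and a median of -0.02. ABCC2, an export pump of conjugates, had 1463 ± 121 CPM in A549 and 4.20 ± 0.36 CPM in H1299 (SD, n = 3; 348-fold). AKR1C2, an aldo-keto reductase with near-identical paralogs, had 2377 ± 331 CPM in A549 and 1.27 ± 0.24 CPM in H1299, where the libraries held 20 to 30 counts. GPX2, a glutathione peroxidase, had 587 ± 46 CPM in A549 and at most 1 count in an H1299 siControl library. CBR3, a carbonyl reductase, was the one gene lower in A549, at 3.50 ± 0.57 CPM against 5.29 ± 0.65 CPM in H1299 (log2 -0.59). AKR1C1 had 3 to 6 counts in the H1299 siControl libraries. GPX2, AKR1C1 and CBR3 were picked out after their values were seen. The partners and regulators of NRF2 went both ways, with 3 of 8 higher and 5 lower, where 37% of all genes were higher and 37.7% lower, and 6 to 8 of them were called with libraries left out. BACH1, a repressor that competes for the same element, was lower in A549 at 40.7 ± 2.7 CPM against 69.7 ± 5.8 CPM in H1299, and MAFG, a small MAF partner, was higher at 172 ± 8.8 against 92.7 ± 12.5 CPM. BTRC, which marks NRF2 for degradation on another route, was higher in A549 at 39.4 ± 5.3 CPM, against 20.6 ± 1.8 CPM in H1299.

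Knockdown of YAP or TAZ was then compared with siControl within each line. In H1299, 6 of 8 members had a lower fitted level after siYAP and 5 of 8 after siTAZ, and of these 1 and 3 were called. The median log2 change over all genes was near 0 (0.0063 and 0.0082), and the share of all genes with a lower fitted level was not counted. GCLM was lower after siYAP, and TXNRD1, HMOX1 and SRXN1 were lower after siTAZ, each to between 0.638 and 0.689 of the siControl level. NQO1 and KEAP1 passed neither test. The siYAP and siTAZ comparisons share their siControl libraries. Replicate numbers were used as a block in a second fit, since libraries with the same number deviated from their group means together.

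In H1299 after siYAP, 1 of 8 members was called, as lower, against 16.6% of the 15775 genes tested (8.75% as lower), which is a share near the background. With libraries left out the share over all genes ran from 0.216% without replicate 3 and 0.735% without replicate 1 of all groups to 27.9% without replicate 2, and it was 6.97% to 9.72% without siYAP 1, siYAP 3, siControl 1 or siControl 3. GCLM had 13.25, 17.5 and 13.7 CPM in siYAP libraries and 20.5, 19.7 and 24.5 CPM in siControl libraries. The groups did not overlap, with siYAP 2 the closest to the controls. The log2 change was -0.54 ± 0.15 (edgeR adjusted p = 0.0278; lower in 3 of 3 same-numbered pairs). The call was lost without siYAP 1 (-0.47), siYAP 3 (-0.48), siControl 1 (-0.58) or siControl 3 (-0.45), and without replicate 1 (-0.51) or replicate 3 (-0.38) of all groups. TXNRD1 was called lower without siTAZ 1 (-0.35), siControl 2 (-0.44) or replicate 2 (-0.41) and by DESeq2 (-0.35, adjusted p = 0.0367), NFE2L2 without siControl 3 (-0.39) and SRXN1 without replicate 2 (-0.50).

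With the replicate block 4 members were lower after siYAP in H1299, against 28.3% of all genes called in that fit, 14.7% as lower. Besides GCLM (-0.55, edgeR adjusted p = 0.00561) these were NFE2L2 at -0.28 ± 0.07 (0.008895 with the block, 0.0702 without), TXNRD1 at -0.33 ± 0.08 (0.00692 with, 0.0675 without) and SRXN1 at -0.41 ± 0.14 (0.0458 with, 0.120 without). NFE2L2 had 69.5, 71.5 and 60.8 CPM in siYAP libraries and 92.4, 83.4 and 71.1 CPM in siControl libraries. Each siYAP library was below the siControl library of its number, although siYAP 2 was above siControl 3. TXNRD1 had 169, 158 and 170.4 CPM in siYAP libraries, all below the 250.2, 179.6 and 202 CPM of siControl. SRXN1 had 4.81, 6.35 and 5.13 CPM in siYAP libraries and 7.97, 7.52 and 6.12 CPM in siControl libraries, and siYAP 2 was above siControl 3. Without all libraries of replicate 1, the block calls of GCLM (adjusted p = 0.0605), NFE2L2 (0.186), TXNRD1 (0.198) and SRXN1 (0.426) were lost. Without replicate 3, those of GCLM (0.0934), NFE2L2 (0.0509) and SRXN1 (0.111) were lost.

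In H1299 after siTAZ, 3 of 8 members were called, all lower, against 23.3% of genes called, 12.4% as lower. The share over all genes was 0.915% without replicate 3, 4.52% without replicate 1 and 33.1% without replicate 2 of all groups. Without siTAZ 3, siControl 1 or siControl 3 it was 10.7%, 11.3% and 15.2%. TXNRD1 had 159.6, 125 and 130.2 CPM in siTAZ libraries and 250.2, 179.6 and 202 CPM in siControl libraries. Every siTAZ library was below every siControl library, with a log2 change of -0.61 ± 0.12 (0.654-fold, edgeR adjusted p = 0.00353). This call held when any 1 library was left out and was lost only when all libraries of replicate 3 were (-0.60, adjusted p = 0.101).

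HMOX1 had 22.85, 24.2 and 17.8 CPM in siTAZ libraries and 36.25, 38.3 and 25.1 CPM in siControl libraries. The groups did not overlap, although siControl 3 was little above siTAZ 2. The log2 change was -0.62 ± 0.15 (0.649-fold, edgeR adjusted p = 0.00900) and was no longer called without siTAZ 3 (-0.48) or without replicate 1 (-0.60). SRXN1 had 3.97, 5.44 and 4.38 CPM in siTAZ libraries and 7.97, 7.52 and 6.12 CPM in siControl libraries. The ranges were again apart, at -0.65 ± 0.17 (0.638-fold, edgeR adjusted p = 0.0163), but the call was lost without siTAZ 1 (-0.56), siTAZ 3 (-0.60), siControl 1 (-0.56), replicate 1 (-0.48) or replicate 3 (-0.72). GCLC stood at 29.03, 29.7 and 31.7 CPM in siTAZ libraries and 26.3, 25.5 and 25.5 CPM in siControl libraries. Its log2 difference of 0.22 ± 0.09 passed only with the block (edgeR adjusted p = 0.0414, 0.0828 without), in which 4 of 8 members and 35.5% of all genes were called, and not without replicate 1 (0.132) or replicate 3 (0.290). In that fit SRXN1 was not called without replicate 1 (0.0843). KEAP1 (-0.17 ± 0.10) and GCLM (-0.18 ± 0.15) passed in neither fit, and without the replicate 2 libraries both were called lower (-0.26 and -0.41), as was KEAP1 without siTAZ 2 alone (-0.28).

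siYAP and siTAZ were also compared with each other in H1299, where 11.7% of genes and 2 of 8 members were called. Over all genes the share ran from 1.21% without replicate 3 to 18.5% without replicate 2 of all groups, and it was 5.35% to 7.44% without siYAP 1, siYAP 3, siTAZ 1 or siTAZ 3. HMOX1 was higher after siYAP, at 38.1, 39.4 and 39.3 CPM, than after siTAZ, at 22.85, 24.2 and 17.8 CPM. The ranges were far apart, and the log2 difference of 0.86 ± 0.15 (1.82-fold, edgeR adjusted p = 0.00222) was called in every fit that left libraries out. NFE2L2 had 69.5, 71.5 and 60.8 CPM after siYAP and 90.2, 85.5 and 80.8 CPM after siTAZ. All siYAP libraries were below the siTAZ libraries (log2 -0.34 ± 0.10, edgeR adjusted p = 0.0481), but the call was lost without siYAP 1 (-0.37), siYAP 3 (-0.28), siTAZ 1 (-0.31), siTAZ 2 (-0.34), siTAZ 3 (-0.39), replicate 1 (-0.33) or replicate 3 (-0.31), and when genes of low count were not filtered (adjusted p = 0.0551). With the block, where 21.5% of genes were called, NQO1 was also lower after siYAP (-0.24, edgeR adjusted p = 0.0217) and TXNRD1 higher (0.28, 0.0182), and 4 of 8 members were called. In that fit NQO1 was not called without replicate 1 (0.0861) or replicate 3 (0.139), nor TXNRD1 (0.211) and NFE2L2 (0.0665) without replicate 3. Without siTAZ 1 and with no block, NQO1 was called (-0.34).

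**Figure D3:**
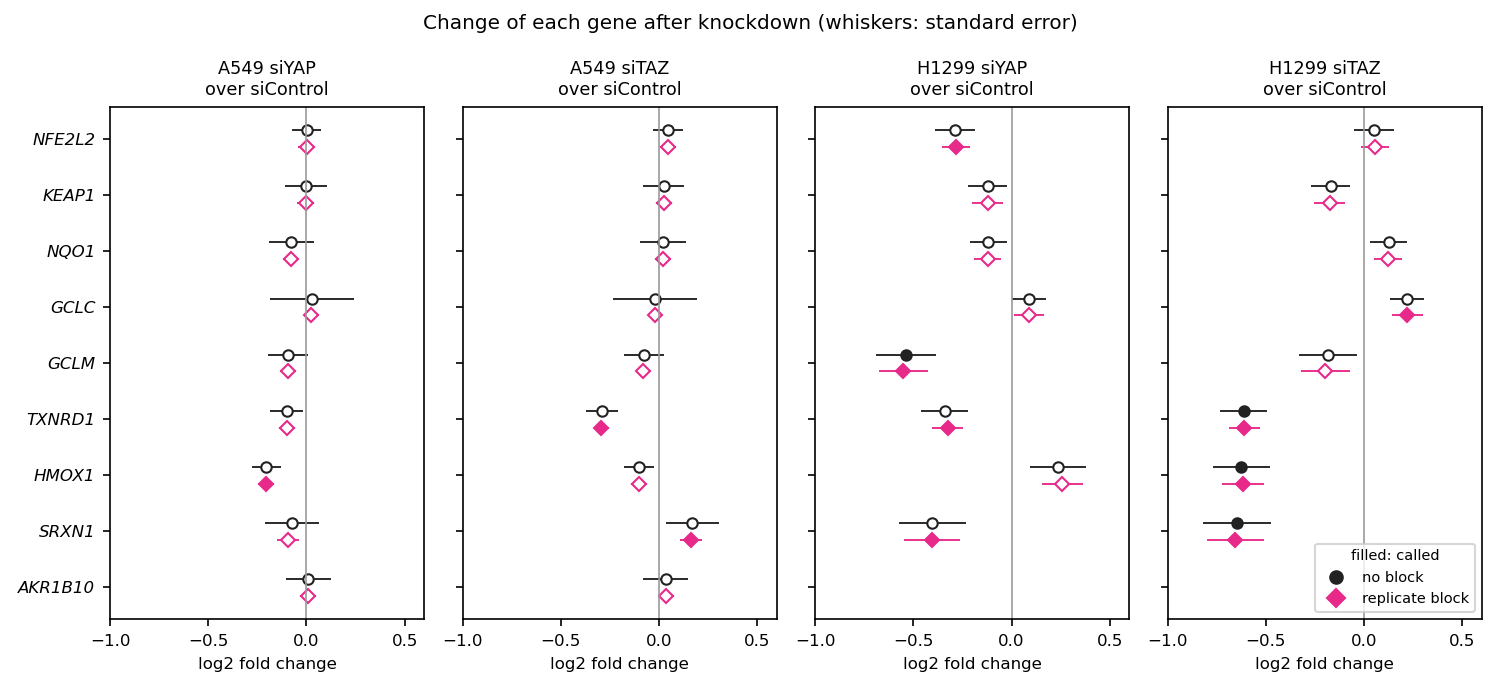
Log2 fold change over siControl of each gene after siYAP and siTAZ in A549 and H1299, without the replicate block (circles) and with it (diamonds), with whiskers for the standard error and filled symbols for an adjusted p below 0.05. In H1299 the siTAZ values of TXNRD1, HMOX1 and SRXN1 sit near -0.6, and in A549 no value lies beyond 0.3 in size.

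Other NRF2 target genes in H1299 went both ways after knockdown. After siYAP, 2 of 28 tested rose and 2 fell, and after siTAZ 3 rose and 4 fell, with median log2 changes of -0.0047 and -0.02. With the block, 3 rose and 6 fell after siYAP, and 3 rose and 9 fell after siTAZ. The share called was 14.3% after siYAP and 25.0% after siTAZ, near the 16.6% and 23.3% of all genes, and with the block 32.1% and 42.9%, against 28.3% and 35.5% of all genes. SLC7A11, the cystine transporter that feeds glutathione synthesis, fell in both. It stood at 6.81 ± 1.56 CPM in siYAP and 5.55 ± 0.17 CPM in siTAZ, against 12.2 ± 3.1 CPM in siControl (log2 -0.84 ± 0.20 and -1.14 ± 0.20, edgeR adjusted p = 0.0118 and 0.00202), and its siYAP call was lost without siYAP 3 or siControl 1 (-0.66 each). ABCC3, a conjugate export pump, rose after siTAZ to 24.5 ± 8.6 CPM, against 5.62 ± 1.90 CPM in siControl (log2 2.12 ± 0.26, edgeR adjusted p = 0.000401). TKT, a transketolase, fell after siYAP (-0.55 ± 0.09, edgeR adjusted p = 0.00262) while SLC48A1, a heme transporter, rose (0.35 ± 0.08, 0.00888), and UGDH, which makes UDP-glucuronate, fell after siTAZ (-0.55 ± 0.10, 0.00276). SLC48A1 missed the threshold without siControl 1 (0.34, adjusted p = 0.0529). Between the knockdowns, 3 of 28 were higher after siYAP and 4 lower, a share of 25.0% against 11.7% of all genes. With the block the shares were 39.3% and 21.5%. With libraries left out and no block, 2 to 10 of these genes were called. SQSTM1, an autophagy adaptor that binds KEAP1, was lower after siYAP at 380.2 ± 41.5 CPM than after siTAZ at 685 ± 82 CPM (-0.84 ± 0.14, edgeR adjusted p = 0.001915). OSGIN1, a stress-induced growth inhibitor, was higher after siYAP (0.74 ± 0.11, 0.00127) and ABCC3 lower (-1.10 ± 0.24, 0.00975, not called without siTAZ 3, -0.87).

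Among the partners and regulators, MAFF, a small MAF protein, was lower in H1299 after either knockdown. It had 12.2 ± 0.9 CPM in siYAP and 11.8 ± 1.8 CPM in siTAZ, against 21.1 ± 3.9 CPM in siControl (log2 -0.78 ± 0.15 and -0.84 ± 0.15, edgeR adjusted p = 0.00404 and 0.00201). MAFK was lower after siTAZ (-0.26 ± 0.08, edgeR adjusted p = 0.0297), a call lost without siYAP 3, siTAZ 2, siTAZ 3, siControl 1 or siControl 3 (-0.21 to -0.26). No other of the 8 passed without the block in these comparisons, and with it BTRC rose after siYAP (0.28 ± 0.09, edgeR adjusted p = 0.0350). The 1 and 2 calls among 8 after siYAP and siTAZ are shares of 12.5% and 25.0%, near those of all genes. Leaving out replicate 1 or replicate 3 of all groups ended the siYAP calls of MAFF (-0.63 and -0.75), TKT (-0.51 and -0.58), SLC48A1 (0.33 and 0.32) and SLC7A11 (-0.68 and -0.85). It also ended the siTAZ calls of UGDH (-0.53 and -0.52) and MAFK (-0.25 and -0.24) and that of ABCC3 between the knockdowns (-1.145 and -0.87), and leaving out replicate 3 that of MAFF after siTAZ (-0.95).

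In A549 every member's log2 change after knockdown was within 0.3 of siControl. Without the block none of the 9 members was called after siYAP or siTAZ or between them, and by edgeR only 0.00625%, 0.00625% and 0.0125% of 16008 genes were, namely YAP1 after siYAP, WWTR1 after siTAZ and both between the knockdowns. At an unadjusted p below 0.05 the siYAP, siTAZ and siYAP against siTAZ comparisons held 410, 701 and 558 genes, and DESeq2 called 4, 46 and 18 genes and no member. Same-numbered A549 libraries deviated together more closely than in H1299, and with the block 5.68%, 13.3% and 7.03% of genes and 1, 2 and 2 members were called.

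HMOX1 was lower after siYAP in A549 by the fit with the block. It had 554, 535 and 548 CPM in siYAP libraries and 642.5, 666 and 583 CPM in siControl libraries. The groups did not overlap, and the log2 change was -0.20 ± 0.04 with the block (0.868-fold, edgeR adjusted p = 0.00120, 1.00 without the block). Without the replicate 2 libraries it was -0.15 and not called. The authors' deposited table gives -0.21 for this change with an adjusted p of 0.000314.

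TXNRD1 was lower after siTAZ, at 2489, 2234 and 2437 CPM in siTAZ libraries and 2929, 2783 and 2984 CPM in siControl libraries. All siTAZ libraries were below all siControl libraries, and the same-numbered log2 ratios were -0.24, -0.32 and -0.29. With the block the change was -0.29 ± 0.04 (0.816-fold, edgeR adjusted p = 1.43e-06), called also when any 1 replicate number was left out, and without it the adjusted p was 0.692. The authors' deposited table gives -0.30 with an adjusted p of 8.19e-14. TXNRD1 was thus lower after siTAZ in both lines, and in A549 its siYAP level of 2766, 2650 and 2659 CPM lay between the other groups (block, siYAP over siTAZ 0.19 ± 0.04, edgeR adjusted p = 0.00143, not called without replicate 2, 0.16).

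SRXN1 was called higher after siTAZ in A549 only by the fit with the block. It had 38.5, 41.0 and 48.2 CPM in siTAZ libraries and 30.7, 37.6 and 44.5 CPM in siControl libraries. The ranges overlapped, but each siTAZ library was above the siControl library of its number (log2 ratios of 0.33, 0.12 and 0.12). The change was 0.16 ± 0.05 with the block (edgeR adjusted p = 0.0425, 0.9999 without the block). It was not called without replicate 1 (0.10), replicate 2 (0.19) or replicate 3 (0.19), nor in the authors' deposited table (0.16, adjusted p = 0.299). After siYAP, SRXN1 was lower than after siTAZ, at 32.9, 33.6 and 40.1 CPM (block, -0.26 ± 0.06, edgeR adjusted p = 0.00201, not called without replicate 2, -0.23).

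The remaining members stayed within narrow bounds in A549. With the block, the log2 difference from siControl was between -0.09 and 0.05 for NFE2L2, KEAP1, NQO1, GCLC, GCLM and AKR1B10 after either knockdown, with standard errors of at most 0.04, and none passed the test. AKR1B10 had 7429, 6824 and 6205 CPM after siYAP and 7470, 7111 and 6482 CPM after siTAZ, against 7312, 6851 and 6245 CPM in siControl. The spread over replicate numbers was larger than any difference between groups. NQO1 was lower after siYAP and higher after siTAZ in 3 of 3 same-numbered pairs each, at 2423, 2351 and 2002 CPM and 2529, 2623 and 2193 CPM, against 2499, 2510 and 2168 CPM in siControl, and neither difference passed (-0.08 and 0.02 with the block, edgeR adjusted p = 0.280 and 0.805).

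Of the 32 other NRF2 target genes tested in A549, none was called without the block, and with it 4 rose and 1 fell after each knockdown, 15.6% of those tested, against 5.68% of all genes after siYAP and 13.3% after siTAZ. GPX2 rose after both, to 676 ± 59 CPM in siYAP and 764 ± 94 CPM in siTAZ, against 587 ± 46 CPM in siControl (block, log2 0.21 ± 0.04 and 0.36 ± 0.04, edgeR adjusted p = 0.000733 and 1.335e-08). ABCC3 also rose after both (0.19 ± 0.04 and 0.18 ± 0.04, edgeR adjusted p = 0.00148 and 0.000935). ALDH3A1, an aldehyde dehydrogenase, rose after siYAP (0.17 ± 0.04, 0.00929) and ABCC1, an export pump, after siTAZ (0.15 ± 0.04, 0.00636). Between the knockdowns the block called 3 of 32, 9.38%, against 7.03% of all genes. GPX2 (-0.16 ± 0.04, edgeR adjusted p = 0.00908) and TKT (-0.15 ± 0.04, 0.0152) were lower after siYAP than after siTAZ, and ABCC2 higher (0.13 ± 0.04, 0.0358). Of the partners, MAFK was lower (-0.25 ± 0.05, 0.000399) and NFE2L1, the related factor NRF1, higher (0.12 ± 0.04, 0.0333) after siTAZ.

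Whether a knockdown acted differently in A549 and in H1299 was tested as the difference of the effects over all 18 libraries. Without the block no member was called for siYAP (0.0823% of 15797 genes) or for siTAZ (0.38%). The numbers at an unadjusted p below 0.05 were 1708 and 2374 genes, and DESeq2 called 124 and 316 genes, SRXN1 after siTAZ among them (log2 difference 0.82, adjusted p = 0.0370). With the block 10.9% and 17.6% of genes and 3 and 4 members were called. After siTAZ, SRXN1 changed by 0.16 in A549 and by -0.66 in H1299, a difference of 0.83 ± 0.14 (edgeR adjusted p = 0.000646, 0.101 without the block). HMOX1 differed by 0.53 ± 0.12 (0.00455, 0.177 without the block), TXNRD1 by 0.32 ± 0.10 (0.0243, 0.353) and GCLC by -0.23 ± 0.08 (0.0429, 0.675). After siYAP, GCLM differed by 0.45 ± 0.13 (0.0249, 0.396 without the block), NFE2L2 by 0.28 ± 0.08 (0.0260, 0.444) and HMOX1 by -0.46 ± 0.11 (0.0124, 0.370). The 3 siYAP differences were lost without the libraries of replicate 1 or of replicate 3, and of the siTAZ differences all 4 were lost without replicate 1, and GCLC also without replicate 2 (edgeR adjusted p = 0.0713) and, with TXNRD1, without replicate 3. Of the other NRF2 target genes, only ABCC3 passed without the block. Its siTAZ effect was smaller in A549 than in H1299 (-1.94 ± 0.29, edgeR adjusted p = 0.01645). That call was lost without H1299 siControl 1 (-1.79) or siControl 3 (-1.84), and without replicate 1 (-1.69) or replicate 3 (-1.61). With the block, 40.0% of 30 were called for siTAZ (8 higher in A549, 4 lower) and 16.7% for siYAP (3 higher, 2 lower). Among the siYAP calls were SLC7A11 (0.87 ± 0.13, edgeR adjusted p = 0.000274), TKT (0.41 ± 0.08, 0.00264) and ABCC3 (-0.82 ± 0.24, 0.0329). Of the partners, MAFF was called with the block for siYAP (0.73 ± 0.15, 0.00456) and siTAZ (0.65 ± 0.15, 0.00670).

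**Figure D4:**
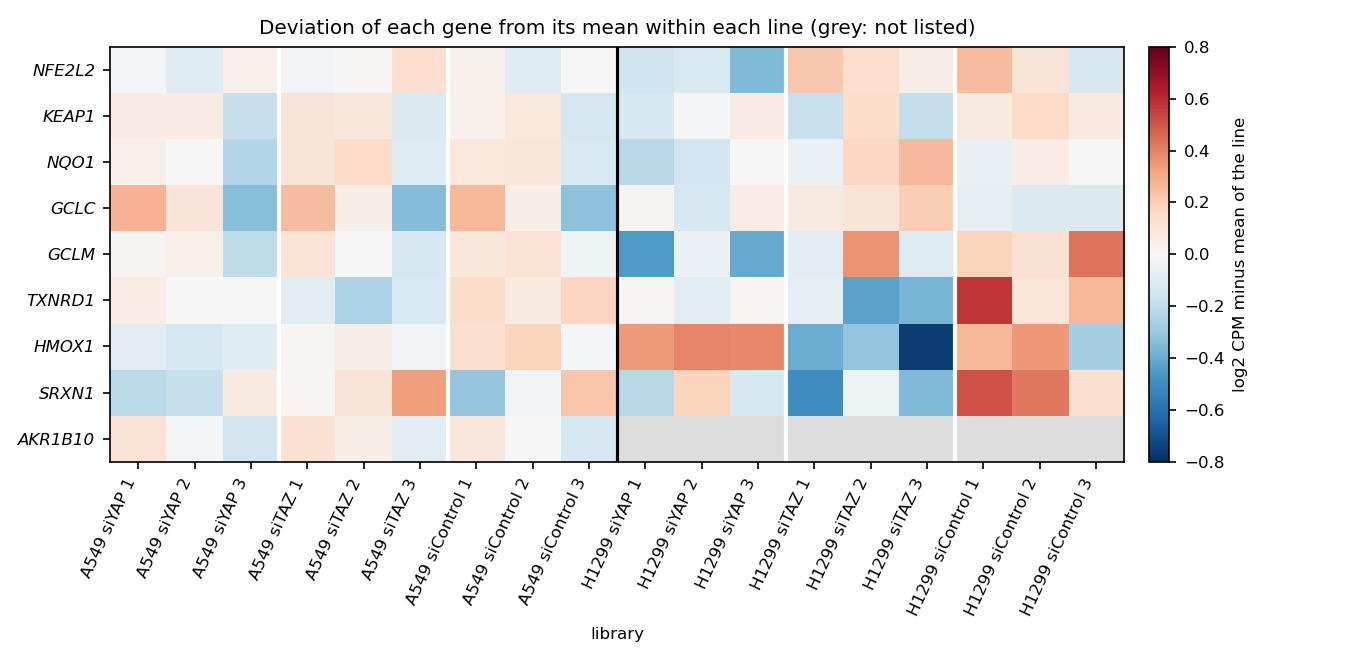
Deviation of each gene's log2 CPM from its mean over the 9 libraries of the same line, by library, with red for above and blue for below the mean and grey where the gene is not listed. In A549 the replicate 3 libraries are low for KEAP1, NQO1, GCLC, GCLM and AKR1B10 whatever the siRNA, and in H1299 the siTAZ libraries are below the siControl libraries for TXNRD1, HMOX1 and SRXN1.

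In A549 the level of 5 members followed the replicate number. GCLC had 332 to 336 CPM in the replicate 3 libraries and 438 to 513 CPM in the other 6. NQO1 had 2002 to 2193 CPM in replicate 3 and 2351 to 2623 CPM in the others. KEAP1, GCLM and AKR1B10 likewise had all 3 replicate 3 libraries below the rest, whereas TXNRD1, HMOX1 and NFE2L2 did not and SRXN1 was highest in replicate 3 of every group. Over the 9 A549 libraries, as deviations from group means, GCLC followed AKR1B10 (r = 0.988) and KEAP1 followed NQO1 (r = 0.981), while GCLC and SRXN1 ran opposite (r = -0.949); these points share their libraries and the step between replicate numbers. In H1299 no member separated replicate 3 from the rest, and the corresponding r of GCLC with SRXN1 was -0.351. Same-numbered libraries of a line share a prefix in their sample descriptions, in order of number IQ, IY and IZ in A549 and A, B and C in H1299. The labels do not say what the prefixes or the replicate numbers stand for.

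The genes whose pattern was most like that of the target members were sought among 9849 genes averaging 5 CPM or more in each line. The pattern was the mean log2 CPM of the 6 target members in both tables, centred within each line over the 18 libraries. The closest were GMPS (r = 0.965), DLAT (0.940), LRRC59 (0.931), TOMM70 (0.929) and CCT2 (0.928). For NQO1 alone they were UTP18 (r = 0.991), TMTC2 (0.989), IBTK (0.983), PPT1 (0.983) and OTUD6B (0.979) over the 9 A549 libraries, and MAPK8 (0.963), TSEN15 (0.941), RNF181 (0.941), COMMD3 (0.933) and TIGD2 (0.928) over the 9 H1299 libraries. The lists of the lines have no gene in common, but lists of 5 out of 9849 genes are too short to compare the lines. Each r is among the highest of 9849 over few libraries, and the points share library and depth.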

How the data were processed

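RNA-seq of poly(A) RNA from 18 libraries was analysed. The deposited tables, 1 per line, hold raw counts per gene and the authors' log2 fold changes and adjusted p-values; per the submitters' processing notes, cutadapt, STAR 2.4.2a, DESeq2 and GRCh38 were used, and no label names the counting tool. The smallest of the genes' highest counts is 6 in both tables. The 9 members and the other gene lists were chosen with earlier results of these data known. All 9 members, YAP1, WWTR1 and up to 3 called genes of each list with the smallest adjusted p per comparison (from the block where it alone made calls) are named, with the 5 genes most like the targets. Some genes of these lists are not reported here. Groups follow the sample titles. Counts were tested with edgeR 4.0.16 in R 4.3.3 (filterByExpr, TMM, quasi-likelihood F test, Benjamini-Hochberg over all genes, adjusted p below 0.05), per line over 9 libraries, and over all 18 libraries for genes in both tables. Scripts were tested on simulated data. Same-numbered libraries of a line share a prefix in their sample descriptions. Their deviations from group means were correlated in every pair (r of 0.108 to 0.383 in H1299 and 0.384 to 0.729 in A549, 9 pairs each). Pairs of different number had r of -0.324 to 0.16 in H1299 and -0.55 to 0.279 in A549. The ranges thus overlapped in H1299 but not in A549. The numbers were therefore taken to pair libraries, and blocked values are given for each member whose call the block changes. Alternatives were DESeq2 1.42.0, its size factors in edgeR, no filter, the block, only the groups compared and leaving out libraries; the block with a replicate number left out was chosen after seeing the data. Total counts per library ran from 10.7 to 45.0 M (units of 1e6). No pair of libraries of a group agreed within sampling noise (chi-square per degree of freedom of at least 5.97).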

Additional observations from a re-analysis of the deposited data

Results flagged for a closer look

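A difference between A549 and H1299 in the response of a member to the same siRNA was tested as an interaction and passed with the replicate block in 7 cases. For siTAZ, the log2 effect in A549 minus that in H1299 was 0.83 for SRXN1, 0.53 for HMOX1, 0.32 for TXNRD1 and -0.23 for GCLC. For siYAP it was 0.45 for GCLM, 0.28 for NFE2L2 and -0.46 for HMOX1. None of the 7 passed in edgeR without the block. HMOX1 differed between the lines in opposite directions for siYAP and siTAZ, which share their siControl libraries. Depth ran from 10.7 to 45.0 M counts (units of 1e6) in A549 and from 16.8 to 20.8 M in H1299, and its part in these differences was not tested.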

How the results depend on the processing

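The 7 baseline calls kept their direction and call under every alternative, with log2 differences from 4.65 to 4.76 for NQO1 and from 2.14 to 2.62 for SRXN1. No member reversed as a called value. With the replicate block, the members called became 4 in H1299 siYAP against siControl (1 without), 4 in siYAP against siTAZ (2 without), 1, 2 and 2 in the A549 siYAP, siTAZ and siYAP against siTAZ comparisons, and 3 and 4 for the siYAP and siTAZ differences between lines (0 without in each). DESeq2 called 2 members in H1299 siYAP against siControl and 1 for the siTAZ difference, and without the filter on low counts 1 was called in H1299 siYAP against siTAZ; the cause was not tested. Leaving out libraries, with or without the block (the blocked ones chosen after seeing the data), gave 0 to 5 members in H1299 siYAP, 1 to 6 in H1299 siTAZ, 1 to 5 in siYAP against siTAZ, 0 to 1 in A549 siYAP and siTAZ, 0 to 2 in A549 siYAP against siTAZ, 7 to 8 at baseline, 0 to 3 for the siYAP and 0 to 5 for the siTAZ difference between lines. Without the block these fits gave 7 members at baseline throughout, with 10387 to 11933 calls over all genes, and 0 in A549 siYAP and siTAZ. Calls over all genes in the blocked leave-out fits are not reported here, so their member counts have no background share. Over all genes, the block gave 4461, 5606 and 3399 calls in H1299 (2625, 3680 and 1846 without, in the order siYAP, siTAZ, siYAP against siTAZ), 909, 2135 and 1126 in A549 (1, 1 and 2 without), and 1714 and 2787 for the siYAP and siTAZ differences between lines (13 and 60 without). With libraries left out and no block, the calls over all genes ran from 34 to 4430, 144 to 5267 and 190 to 2945 in H1299, 0 to 1, 0 to 4 and 0 to 3 in A549, and 0 to 128 and 0 to 240 for the siYAP and siTAZ differences between lines; the lowest counts in H1299 were without replicate 3 and the highest without replicate 2. DESeq2 gave 4, 46 and 18 in A549 and 124 and 316 for those differences. AKR1B10 has no H1299 value, and 3 libraries per group limit what small changes can be called.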
